A study of Mus musculus with 5 samples.

Results

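The 32 genes described here mark leukocytes, and most of them mark macrophages and their relatives. Each was represented by 1 probe set of a mouse Affymetrix array, the one of highest mean log2 intensity among those whose platform annotation gave its symbol alone. All 32 were found, among 18194 genes chosen in the same way. The arrays measured RNA of ovarian granulosa cells, the somatic cells that surround the oocyte and become luteal cells after ovulation. The series asked what C/EBPα and C/EBPβ, a pair of basic leucine zipper transcription factors, do in ovulation and luteinization. Every mouse had received equine chorionic gonadotropin (eCG), a stimulus of follicle growth, for 48 h. A following dose of human chorionic gonadotropin (hCG) took the place of the surge of luteinizing hormone. The groups were wild type 8 h and 24 h after hCG and the double knockout 4 h, 8 h and 24 h after hCG, with 1 array per group.

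The knockout mice carried floxed alleles of both C/EBP genes and a Cyp19-cre transgene. The Cyp19 promoter drives Cre in granulosa cells, so the design aims the deletion at those cells and not at leukocytes. The mice were 23 days old at 4 h and 8 h and 24 days old at 24 h. Whether wild-type mice carried the floxed alleles without Cre, how many mice gave each RNA, and whether mice were pooled are not given in the sources used here. No wild-type array at 4 h was analysed here. With 1 array per group there is no replicate error, no test and no p-value, and all differences given here are between a pair of single arrays.

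Macrophages are a resident and recruited population of the ovary, found mostly in the tissue outside the follicle's basement membrane before ovulation. They enter the follicle wall around ovulation and are abundant in the corpus luteum, where they clear debris, remodel matrix and take part in the growth and regression of luteal tissue. The markers fall into groups by role. Ptprc (CD45) and other genes are shared by nearly all leukocytes, the C1q genes encode the recognition subunit of the classical complement pathway, Fc receptors bind antibody, and MHC class II molecules present peptides to T cells. In bulk RNA, fewer cells of a type and less RNA per cell cannot be told apart, so an intensity below is a level in the whole sample.

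A size rule stood in for a test. It asked for a change of 2-fold or more between the arrays compared (1 on the log2 scale) and for a higher value at or above a floor of 22, which was the 40th percentile of all intensities. "Lower" and "higher" are used of genes past this rule. A fold written "at least" has the floor in place of a value below it. In pairs of intensities for 1 time, wild type comes first. Intensities compare 1 probe set between arrays and not 1 gene with another. The array of the knockout at 4 h stood apart from the others. Its median intensity was 54 against 31 or 32, and its ratio of the 3′ to the 5′ probe sets for β-actin was 3.87 against 1.36 to 1.496, a ratio that rises when RNA is degraded or copied incompletely. Both targeted genes read below wild type, Cebpa at 685 and 19 and Cebpb at 7436 and 1127 at 8 h, and Cebpa at 352 and 38 and Cebpb at 3976 and 85 at 24 h, though which part of each gene was deleted is not given. All 9 granulosa markers on the array lay above the floor on every array, among them Inha, the inhibin alpha subunit, at 16632 in wild type at 8 h. So did all 15 stroma, all 7 theca and all 8 oocyte markers, so the label was not set apart from other ovarian cells by this check.

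The promoters of 4 markers that were lower in the knockout at 8 h show what these genes have in front of their start sites. Each window runs from 250 bases before to 50 bases after the transcription start in RefSeq (GRCm38.p6) and is printed 5′ to 3′ on the gene's strand. Capitals mark every match on either strand to GAGGAA, the core of the site bound by PU.1, or to TTGCNNAA, a C/EBP-type site. PU.1, the product of Spi1, is the factor that directs the macrophage lineage. These 4 were chosen after their values and matches were seen, and a match is a run of letters, not a site shown to be bound. C1qc (chr4:136892865-136893164, minus strand) encodes a chain of C1q. Fcgr3 (chr1:171059345-171059644, minus strand) encodes an activating receptor for IgG. Ctss (chr3:95526536-95526835, plus strand) encodes the lysosomal protease cathepsin S, and Mrc1 (chr2:14229164-14229463, plus strand) the macrophage mannose receptor.
C1qc: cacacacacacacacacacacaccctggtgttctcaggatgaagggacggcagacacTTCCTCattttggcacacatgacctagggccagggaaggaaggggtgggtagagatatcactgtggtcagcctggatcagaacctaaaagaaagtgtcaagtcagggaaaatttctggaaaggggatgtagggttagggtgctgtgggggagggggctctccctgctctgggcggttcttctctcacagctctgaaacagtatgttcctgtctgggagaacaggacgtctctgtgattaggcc
Fcgr3: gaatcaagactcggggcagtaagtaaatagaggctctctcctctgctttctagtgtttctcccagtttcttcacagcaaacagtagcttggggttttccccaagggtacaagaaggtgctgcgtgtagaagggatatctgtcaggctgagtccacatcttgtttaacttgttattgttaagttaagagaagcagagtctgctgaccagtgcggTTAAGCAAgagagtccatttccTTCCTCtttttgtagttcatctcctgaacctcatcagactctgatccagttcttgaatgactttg
Ctss: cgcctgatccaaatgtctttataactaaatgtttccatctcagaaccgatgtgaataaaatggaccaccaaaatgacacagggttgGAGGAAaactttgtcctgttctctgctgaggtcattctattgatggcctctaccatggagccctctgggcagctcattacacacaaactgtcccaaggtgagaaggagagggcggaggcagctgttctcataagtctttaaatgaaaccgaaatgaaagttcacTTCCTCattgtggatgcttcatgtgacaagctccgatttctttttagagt
Mrc1: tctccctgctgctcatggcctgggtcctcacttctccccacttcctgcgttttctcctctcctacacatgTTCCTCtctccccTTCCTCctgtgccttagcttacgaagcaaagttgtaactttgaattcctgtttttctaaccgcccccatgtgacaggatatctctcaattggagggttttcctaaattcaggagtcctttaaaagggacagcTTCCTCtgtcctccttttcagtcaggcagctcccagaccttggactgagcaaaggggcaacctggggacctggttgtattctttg
The RefSeq table had windows for 21 of the 32 genes, 26 windows in all. GAGGAA was present in 14 of these windows (53.8%), belonging to 13 genes, and in 28.3% of all 32851 windows in the table. TTGCNNAA was present in 3 windows (11.5%), belonging to Cd68 and Fcgr3, and in 10.8% of all windows. Windows of 1 gene can overlap, so windows are not independent. Both windows of Lcp1, another gene lower at 8 h, held neither run of letters.

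At 8 h after hCG most of the markers lay below wild type in the knockout, and 6 were lower while 1 was higher. Of the 32 genes, 26 reached the floor on at least 1 array of the pair. Mrc1 and Ms4a6d reached it in wild type alone, so these 2 were bound to lie below wild type, and at 24 h the same held for Ms4a6d. C1qa, C1qc, Fcgr3, Ctss, Mrc1 and Lcp1 were lower and Cd52 was higher. Those 6 are 23.1% of the 26, while 4.05% of the 12924 genes above the floor were lower, and 1.58% of those genes were higher. The median log2 difference of the 26 was -0.54, against -0.01 over all genes above the floor, and 21 of the 26 (80.8%) lay below 0, as did 50.7% of all genes. Over all 32 genes, with no floor, the median was -0.50.

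At 24 h the markers again lay mostly below wild type, but other genes passed the rule. Of 29 above the floor, Ptprc, Cd53, Coro1a and Ms4a6d were lower and none was higher. Those 4 are 13.8% of the 29, while 3.92% of 13052 genes were lower and 3.13% were higher. The median was -0.45 against 0.05 over all genes, and 23 of the 29 (79.3%) lay below 0 against 43.7% of all genes. Over all 32 genes the median was -0.44. No marker passed the rule at both times, while of the 26 markers above the floor at both times, 17 (65.4%) lay below wild type at both, as did 29.0% of 12660 genes. Of those 26, Laptm5 alone lay above wild type at both, by 0.07 and 0.23 on the log2 scale. The genotype differences at 8 h and at 24 h share no array.

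**Figure D1:**
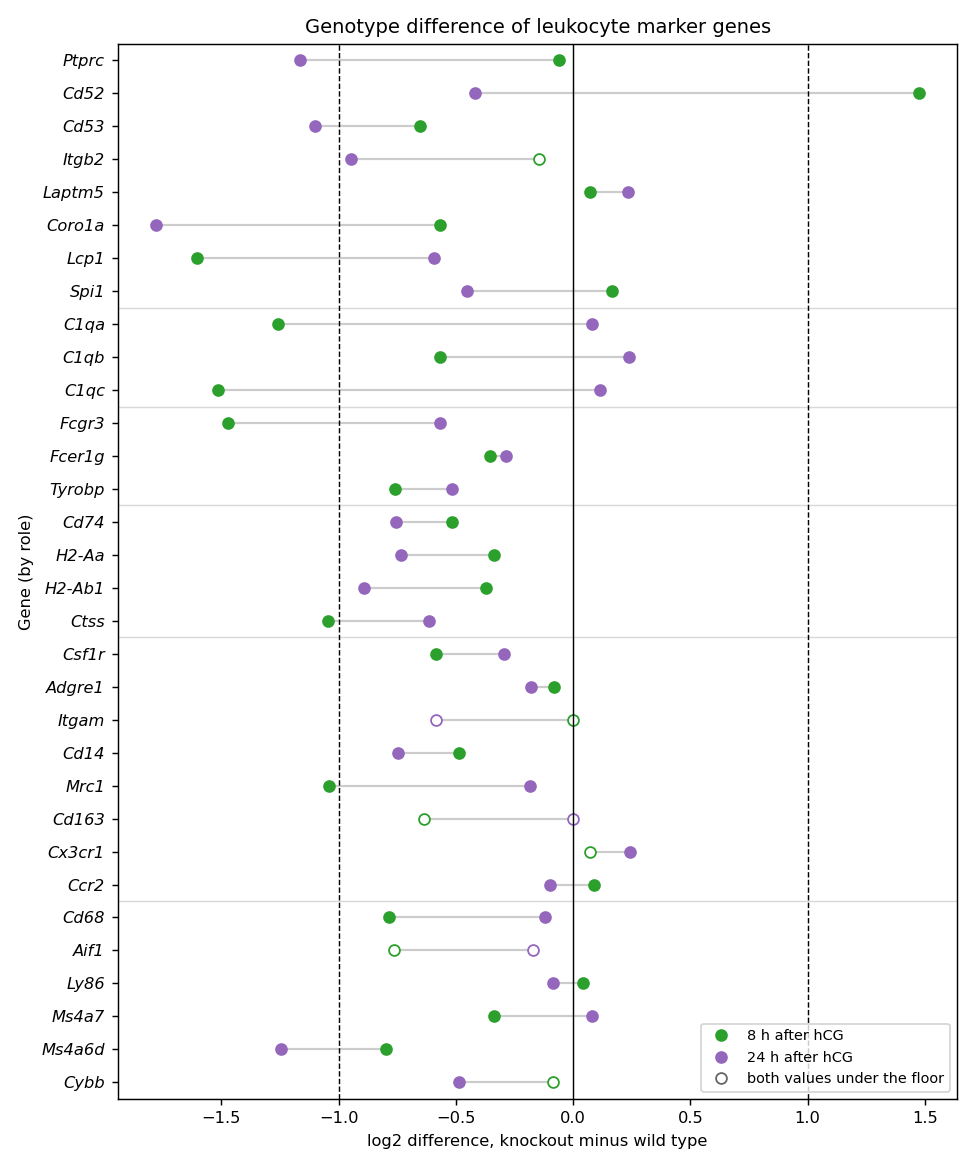
Log2 difference in intensity, knockout minus wild type, for each of the 32 markers at 8 h (green) and 24 h (purple), with grey lines joining both times of a gene and dashed lines at 2-fold. Open points had both values under the floor. Coro1a, at -1.78 at 24 h, lies farthest to the left and Cd52, at 1.48 at 8 h, farthest to the right.

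Of the complement genes, C1qa and C1qc were below wild type at 8 h by the size rule and short of the rule at 24 h. C1qa, which encodes the A chain, had an intensity of 58 in the knockout at 4 h, 122 in wild type against 51 in the knockout at 8 h, and 103 in wild type against 109 in the knockout at 24 h (probe set 1417381_at). C1qc, the C chain, had 53, 103, 36, 73 and 79 in the same order (1449401_at). Both were low in the knockout at 8 h alone among the arrays of 8 h and 24 h. C1qa was 2.39-fold and C1qc 2.86-fold lower than wild type at 8 h, and at 24 h they differed by 0.08 and 0.11 on the log2 scale. From 8 h to 24 h in the knockout C1qa rose 2.14-fold and C1qc 2.19-fold. These rises use the same knockout array at 8 h as the genotype difference.

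C1qb, the B chain, has 3 probe sets, and the result depended on which was taken. The one of highest mean over all 5 arrays (1434366_x_at) read 159 in the knockout at 4 h, 111 in wild type against 75 in the knockout at 8 h, and 89 and 105 at 24 h. It missed the rule at 8 h, with a log2 difference of -0.57. The probe set 1417063_at, of highest mean over the 4 arrays of 8 h and 24 h, read 160 in wild type against 79 in the knockout at 8 h, a difference of -1.02 that passed the rule. The third, 1437726_x_at, read 119 and 42, a difference of -1.5025. All 3 probe sets lay below wild type at 8 h and above it at 24 h, where they differed by 0.18 to 0.24. The array at 4 h read 159 on the first probe set and 62 and 31 on the others, so the choice rested on that array.

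Fcgr3 had an intensity of 63 in the knockout at 4 h, 122 in wild type against 44 in the knockout at 8 h, and 111 and 75 at 24 h. It was 2.77-fold lower than wild type at 8 h and differed by -0.57 at 24 h, short of the rule. The adaptor genes Fcer1g and Tyrobp differed less between genotypes, by -0.35 and -0.76 at 8 h, and by -0.29 and -0.51 at 24 h. Fcer1g, the gamma chain that Fc receptors need for signalling, read 106 in wild type against 83 in the knockout at 8 h, and 166 and 136 at 24 h. Tyrobp (DAP12), the adaptor of several activating receptors of myeloid cells, read 127 and 75 at 8 h, and 210 and 147 at 24 h. Both adaptors had their highest value in wild type at 24 h and missed the rule in each of the 4 comparisons of 8 h and 24 h arrays.

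The genes of MHC class II presentation lay below wild type together at both times, but at 24 h none of the 4 in this group passed the rule. Cd74, the invariant chain that escorts class II molecules, read 59 in the knockout at 4 h, 93 in wild type against 65 in the knockout at 8 h, and 174 and 103 at 24 h. H2-Aa, a class II alpha chain, read 138, 91, 72, 138 and 83 in the same order, and H2-Ab1, a class II beta chain, 94, 88, 68, 152 and 82. In all 3 genes the 24 h wild-type array stood above the other arrays of 8 h and 24 h. Their genotype differences at 24 h were -0.76, -0.73 and -0.89, short of the rule. The other 2 probe sets of H2-Ab1 were past it, at -1.18 (61 against 27) and -1.05 (85 against 41). With its probe sets averaged, H2-Ab1 was lower at 24 h.

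Ctss, whose protease trims the invariant chain, also lay below wild type at both times, but it passed the rule at 8 h. Its intensity was 601 in the knockout at 4 h, 252 in wild type against 122 in the knockout at 8 h, and 448 and 293 at 24 h. It was 2.07-fold lower than wild type at 8 h, just inside the rule, and differed by -0.61 at 24 h. From 8 h to 24 h it rose 2.40-fold in the knockout, and in wild type it differed by 0.83. The knockout at 8 h was the lowest of all 5 arrays.

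**Figure D2:**
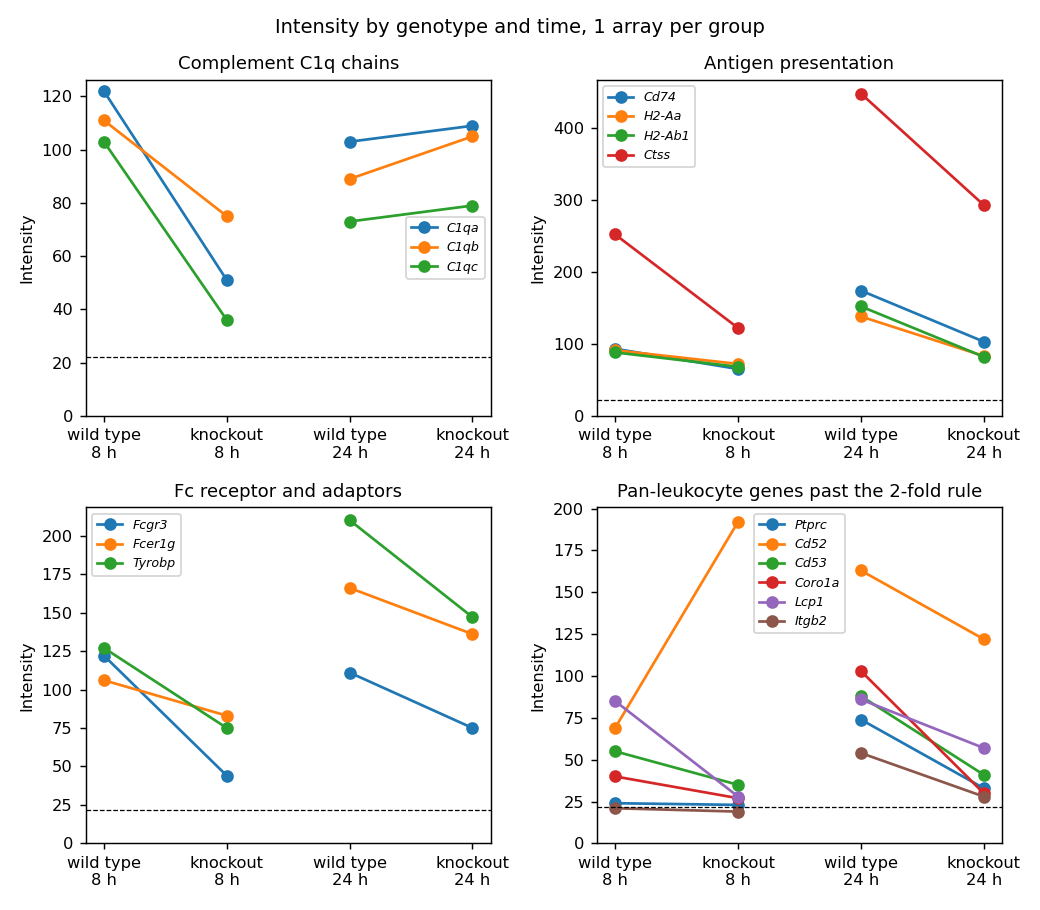
Intensity on a linear axis for genes of 4 roles on the wild-type and knockout arrays at 8 h and 24 h, with lines joining the genotypes at 1 time and a dashed line at the floor of 22. C1qa falls from 122 to 51 between the genotypes at 8 h and reads 103 and 109 at 24 h, while Coro1a reads 103 and 30 at 24 h.

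The 8 genes grouped here as pan-leukocyte include Spi1, although its product PU.1 directs the macrophage lineage. Of the 8, 3 passed the rule at 24 h, with lower values in the knockout. At 8 h 7 were above the floor, and 1 was lower and 1 higher. Over all genes above the floor, 3.92% were lower at 24 h, and 4.05% were lower and 1.58% higher at 8 h. Ptprc, the CD45 phosphatase that defines blood leukocytes, read 122 in the knockout at 4 h, 24 in wild type against 23 in the knockout at 8 h, and 74 in wild type against 33 in the knockout at 24 h (1422124_a_at). It was near the floor in both genotypes at 8 h. From 8 h to 24 h it rose 3.08-fold in wild type, and at 24 h it was 2.24-fold lower in the knockout. Its other probe set read 7 or 8 on the 4 arrays of 8 h and 24 h, under the floor. With the mean of both probe sets, Ptprc passed the rule in neither comparison.

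Coro1a, an actin regulator of leukocytes, had the largest genotype difference of the 32 at 24 h. Its intensity was 41 in the knockout at 4 h, 40 in wild type against 27 in the knockout at 8 h, and 103 and 30 at 24 h. Wild type at 24 h stood apart from the other arrays, which lay between 27 and 41. Coro1a was 3.43-fold lower in the knockout at 24 h and rose 2.58-fold in wild type from 8 h. A second probe set (1455269_a_at) gave a genotype difference of -0.72 at 24 h, in the same direction but short of the rule. When its probe sets were averaged Coro1a was still lower at 24 h, while the rise in wild type missed the rule.

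Cd53, a tetraspanin of leukocytes, read 22 in the knockout at 4 h, 55 in wild type against 35 in the knockout at 8 h, and 88 and 41 at 24 h. It was 2.15-fold lower in the knockout at 24 h and differed by -0.65 at 8 h. Its other probe set read 6 on the 4 arrays of 8 h and 24 h, and with the mean of both the call at 24 h was lost. Itgb2, the beta chain of the leukocyte integrins, read 53 at 4 h, 21 and 19 at 8 h, and 54 and 28 at 24 h. It rose at least 2.45-fold in wild type from 8 h to 24 h, though not with the floor at the 60th percentile, and its genotype difference at 24 h, -0.95, was just outside the rule. Both genes had their highest 8 h or 24 h value in wild type at 24 h.

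Lcp1, the actin-bundling protein L-plastin, was low in the knockout at 8 h. Its intensity was 48 in the knockout at 4 h, 85 in wild type against 28 in the knockout at 8 h, and 86 and 57 at 24 h (1415983_at). It was 3.04-fold lower in the knockout at 8 h, the largest fall below wild type at that time, and rose 2.04-fold in the knockout from 8 h to 24 h. Its second probe set (1448160_at) read 47 and 37 at 8 h, a difference of -0.35. With the mean of both probe sets Lcp1 passed the rule in neither comparison, and the rise with time was also lost after median centring.

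Cd52, which encodes a small surface glycoprotein of lymphocytes and monocytes, was the one marker above wild type by the size rule at 8 h. Its intensity was 52 in the knockout at 4 h, 69 in wild type against 192 in the knockout at 8 h, and 163 in wild type against 122 in the knockout at 24 h (1460218_at, its one probe set). It was 2.78-fold higher in the knockout than in wild type at 8 h and differed by -0.42 at 24 h. In wild type it rose 2.36-fold from 8 h to 24 h, while in the knockout it differed by -0.65. Of the 4 arrays of 8 h and 24 h, the knockout at 8 h was the highest for Cd52 and for none of the other 28 markers above the floor.

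The other genes of the pan-leukocyte group differed less. Laptm5, a lysosomal membrane protein of blood cells, read 59 and 62 at 8 h, and 63 and 74 at 24 h on the probe set taken (1447742_at). That probe set read 411 in the knockout at 4 h, and 3 other probe sets above the floor gave genotype differences of -0.56 to 0 at 8 h and -0.49 to -0.20 at 24 h. The sign for Laptm5 therefore depended on the probe set. Spi1, which encodes PU.1, read 50 at 4 h, 41 in wild type against 46 in the knockout at 8 h, and 52 and 38 at 24 h. Its differences of 0.17 and -0.45 were short of the rule.

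Among the receptors of monocytes and macrophages, Mrc1 was the one past the rule between genotypes. It read 123 in the knockout at 4 h, 37 in wild type against 18 in the knockout at 8 h, and 25 and 22 at 24 h. At 8 h it was at least 1.68-fold lower in the knockout, with the knockout value under the floor, a call lost after centring the arrays on their medians. Mrc1 is also known from lymphatic endothelium. Csf1r, the receptor for colony stimulating factor 1 on which most macrophages depend, read 204 in the knockout at 4 h, then 180 and 120 at 8 h, and 270 and 220 at 24 h. Its differences of -0.58 and -0.30 were short of the rule, and it was above the floor on every array.

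Cd14, the lipopolysaccharide co-receptor, read 133 in the knockout at 4 h, then 63 and 45 at 8 h, and 52 and 31 at 24 h, with differences of -0.49 and -0.75. It was the one marker above the floor that lay below 0 with time in both genotypes. Adgre1, which encodes the F4/80 antigen of mouse macrophages, read 122, 55, 52, 68 and 60 in the same order of arrays and differed by -0.08 and -0.18. Ccr2, the receptor that brings monocytes out of the blood, read 76, 32, 34, 45 and 42 (1460067_at). The other probe sets of Ccr2 read 5 to 21 on the 8 h and 24 h arrays, under the floor. Cx3cr1, the fractalkine receptor, lay between 19 and 26 on the 8 h and 24 h arrays, close to the floor. On the probe sets taken, the F4/80 and Ccr2 genes differed little between genotypes at times when the complement genes or Coro1a passed the rule. That contrast was not tested.

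Itgam (CD11b), Cd163, a scavenger receptor for haemoglobin, and Aif1 (IBA1), an actin-binding protein of macrophages, stayed under the floor on all 4 arrays of 8 h and 24 h. Their intensities there were 7 to 12, 9 to 14 and 10 to 18. They give no comparison, and a value under the floor does not show that the gene was silent.

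Of the remaining macrophage genes, Ms4a6d, a tetraspan membrane protein, read 24 in the knockout at 4 h, then 33 and 19 at 8 h, and 38 and 16 at 24 h. It was at least 1.73-fold lower in the knockout at 24 h, and its difference at 8 h was -0.80. The call was lost when its probe sets were averaged, with a higher floor, and without the less specific probe sets. Cd68, a glycoprotein of macrophage lysosomes, read 109, 105, 61, 101 and 93, with the knockout at 8 h the lowest and a difference there of -0.78. Ly86 (MD-1), which stabilizes a Toll-like receptor homologue, read 31, 34, 35, 68 and 64, and rose 2-fold in wild type, at the threshold itself. In the knockout Ly86 differed by 0.87 over the same interval. Cybb, the catalytic subunit of the phagocyte NADPH oxidase, read 39, 17, 16, 35 and 25, and rose at least 1.59-fold in wild type, but not when its probe sets were averaged. Ms4a7 lay between 42 and 55 on the 8 h and 24 h arrays and did not pass the rule.

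**Figure D3:**
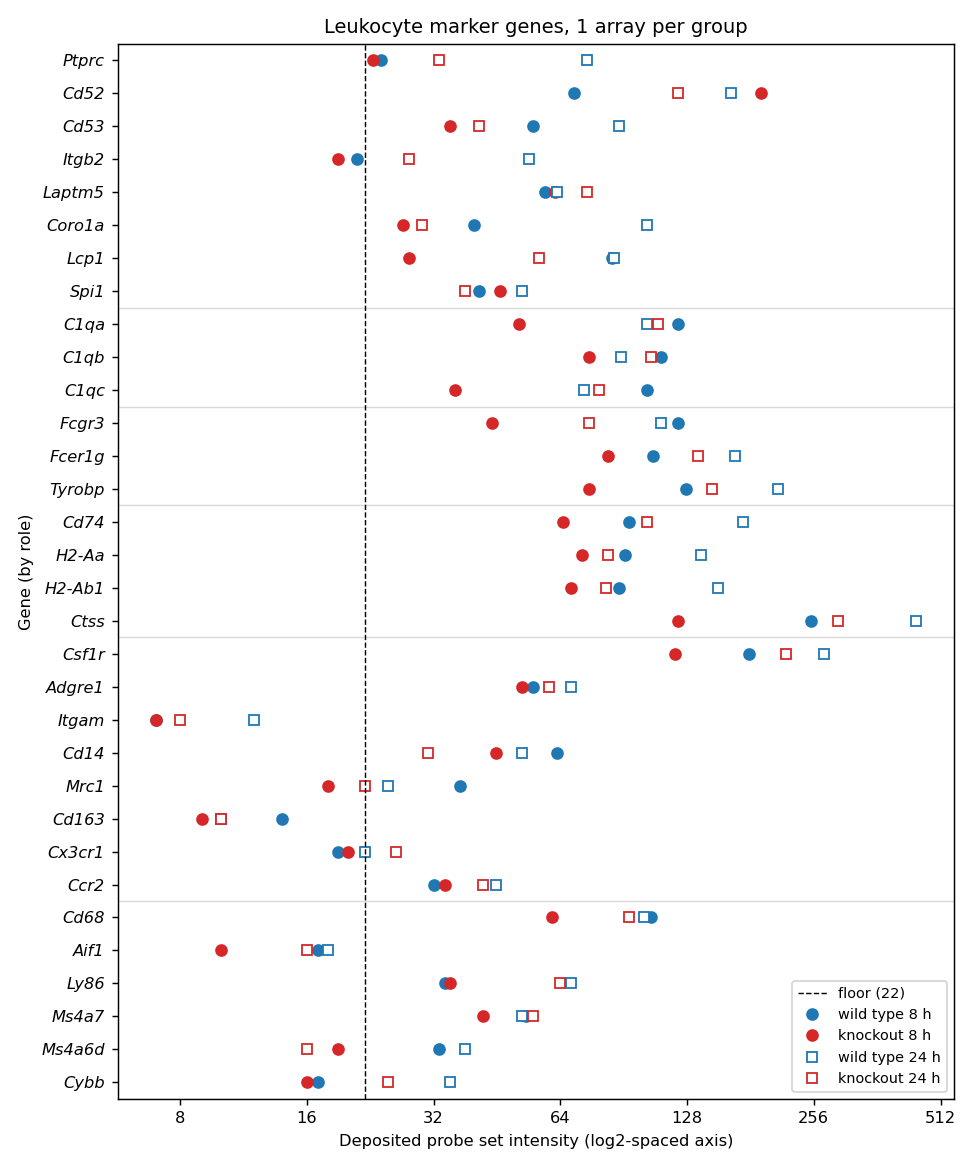
Deposited intensity of each of the 32 markers on a log2-spaced axis for wild type (blue) and knockout (red) at 8 h (filled circles) and 24 h (open squares), grouped by role, with the floor of 22 dashed. The filled red point is the lowest for most genes, and the open blue square is the highest for most.

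From 8 h to 24 h after hCG, as granulosa cells luteinize, most markers lay higher in both genotypes, and different genes passed the rule in each. In wild type Ptprc, Cd52, Itgb2, Coro1a, Ly86 and Cybb rose and none fell, of 29 above the floor. Those 6 are 20.7% of the 29, and the direction of 2 of them, Itgb2 and Cybb, was fixed by the floor, while 5.55% of 13054 genes rose and 6.45% fell. In the knockout C1qa, C1qc, Ctss and Lcp1 rose and none fell, of 28. Those 4 are 14.3%, while 6.85% of 12999 genes rose and 5.26% fell. The medians were 0.49 in wild type and 0.50 in the knockout, against 0 and 0.07 over all genes. Setting values below the floor to 22, the knockout median was 0.37. Itgb2, Cx3cr1 and Cybb reached the floor only at 24 h in both genotypes, and Mrc1 only at 24 h in the knockout, so these were bound to lie above 0 there. With them, 18 of 28 markers above the floor in both genotypes (64.3%) lay above 0 in both, as did 38.1% of 12737 genes. No marker rose in both genotypes by the rule.

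By role, all 8 genes of the pan-leukocyte group lay above 0 with time in wild type, with 4 past the rule and a median of 0.96. In the knockout 6 of the 8 did, with 1 past the rule and a median of 0.24. Over all genes above the floor, 49.1% lay below 0 with time in wild type and 42.7% in the knockout. Those that rose by the rule were 5.55% and 6.85%. The 3 C1q genes lay below 0 in wild type, with a median of -0.32, and above 0 in the knockout, with a median of 1.10. The 4 antigen presentation genes lay above 0 in both genotypes, with medians of 0.81 and 0.47. The differences between the genotypes in these time courses were not tested.

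Across the 4 arrays of 8 h and 24 h, most extremes fell on 1 array of each genotype. Of the 29 markers above the floor on at least 1 of these arrays, the knockout at 8 h was the lowest for 21 (72.4%), against 27.3% of 13316 genes. Wild type at 24 h was the highest for 18 (62.1%), against 25.7% of all genes, and the lowest for 0 of the 29, against 28.8%. The floor limited some of these. Itgb2, Cx3cr1 and Cybb reached it only at 24 h, so no 24 h array could be their lowest and no 8 h array their highest. Ms4a6d reached it only in wild type, so no wild-type array could be its lowest and no knockout array its highest. Mrc1 missed it only in the knockout at 8 h, so that array was bound to be its lowest. The knockout at 24 h was the highest for 3 markers and the lowest for 3. The summed intensity of the 32 markers was 2275 in wild type against 1611 in the knockout at 8 h, and 3163 and 2323 at 24 h.

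**Figure D4:**
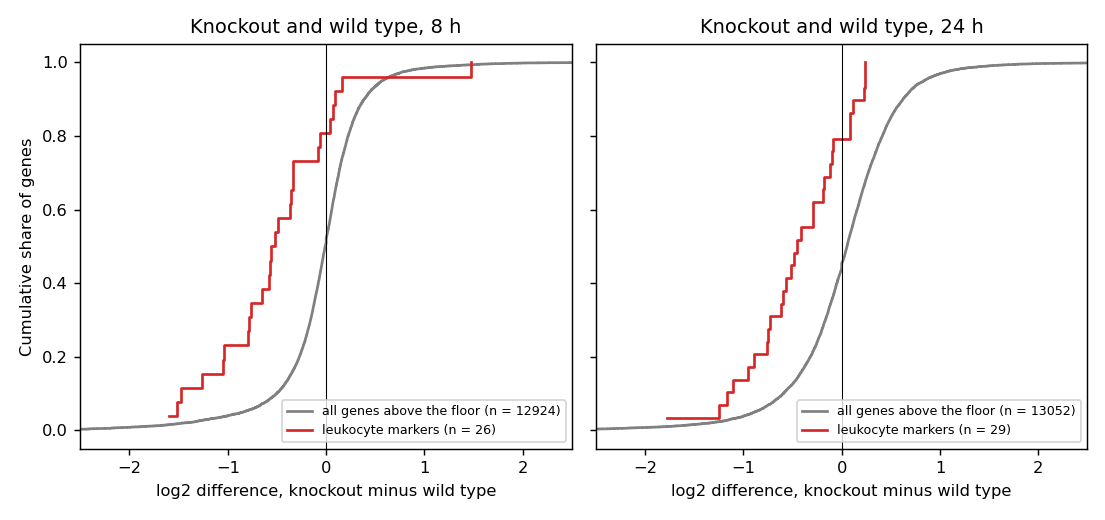
Cumulative share of genes by log2 difference, knockout minus wild type, at 8 h (left) and 24 h (right), for the markers (red) and all genes (grey) above the floor. The red step lies to the left of the grey curve over most of its range at both times, with medians of -0.54 and -0.45 against -0.01 and 0.05. Genes within an array are not independent replicates.

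The array of the knockout at 4 h has no wild-type partner, and its intensities are on another scale. From 4 h to 8 h in the knockout, 11 of 30 markers above the floor fell and 1 rose on the deposited values, while 39.9% of 15198 genes fell and 5.51% rose. Of the 30, 6 were bound to lie below 0, since they reached the floor at 4 h alone. The median of the markers was -0.77 and that of all genes -0.78. After quantile normalization of the 5 arrays 4 markers fell and 5 rose, of 29, while 11.9% of 13690 genes fell and 18% rose, so the markers' shares were near those of all genes. Ptprc, Laptm5, Ctss and Mrc1 fell and Cd52 rose with the deposited values, after quantile normalization and after centring each array on its median. Cd53, Fcer1g, Tyrobp and Ly86 were the others that rose after quantile normalization, and with the deposited values their differences were 0.67, 0.38, 0.71 and 0.18. The β-actin ratio of the 4 h array differed from that of the other arrays as given above, and its part in these differences was not tested.

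Of a further list of 50 genes of macrophages and monocytes, 46 were on the array. At 8 h 4 of 28 above the floor were lower in the knockout and none higher, with a median of -0.25. Over all genes above the floor, 4.05% were lower and 1.58% higher at 8 h, and 3.92% lower and 3.13% higher at 24 h. These shares also stand beside the genotype counts of the lists that follow. Plbd1, a lysosomal phospholipase-like protein, was 3.20-fold lower (368 against 115), Lyz2, the lysozyme of macrophages and granulocytes, 2.78-fold (565 against 203), F13a1, the coagulation factor XIII A chain, 2.21-fold, and Irf8, a factor of the myeloid lineage, at least 1.55-fold. At 24 h 3 of 30 were lower, namely Plbd1 (419 against 157), Lyz2 (943 against 413) and the inhibitory receptor gene Sirpa (162 against 79). Csf2rb, the common beta chain of cytokine receptors, was 5.01-fold higher (76 against 381). Plbd1 and Lyz2 were lower at both times, unlike any of the 32.

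Of 8 further class II and presentation genes on the array, 4 were above the floor and Cd83 passed the rule in all 4 comparisons, at the threshold itself for genotype at 8 h. Cd83, which holds class II molecules at the cell surface, read 50 in wild type against 25 in the knockout at 8 h, and 178 and 70 at 24 h. H2-Eb1, another class II beta chain, read 63 and 52 at 8 h, and 87 and 64 at 24 h. Ciita, the activator of class II genes, was under the floor on these 4 arrays.

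For 2 receptors among the 32, a ligand was lower in the knockout at 24 h. Il34, a ligand of the Csf1r product, read 17 and 17 at 8 h, and 68 in wild type against 15 in the knockout at 24 h, at least 3.09-fold lower. Csf1, the other ligand, lay between 74 and 76 on these 4 arrays. Ccl2, the main ligand of Ccr2, read 34 and 28 at 8 h, and 84 and 40 at 24 h, 2.10-fold lower in the knockout. Cx3cl1, the ligand of Cx3cr1, read 174 and 130 at 8 h, and 291 and 165 at 24 h, short of the rule. Of the ligand list, 3 of 12 were lower at 8 h (Cxcl12, Ccl6 and Ccl9) and 2 of 14 at 24 h (Il34 and Ccl2). Whether the difference for a ligand was larger at 24 h than at 8 h was not tested.

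Most genes of the lists for other leukocytes lay under the floor. Of 14 neutrophil genes, 5 were above it at 8 h and 7 at 24 h. Camp, an antimicrobial peptide of neutrophil granules, was 7.27-fold lower in the knockout at 8 h (160 against 22) and 6.26-fold lower at 24 h. It was the 1 gene of the 5 past the rule at 8 h, when S100a8 and S100a9, calcium-binding proteins of neutrophils, read 37 and 36 in wild type against 50 and 57 in the knockout, short of the rule. At 24 h 4 of the 7 were lower, namely Camp, Lcn2, S100a8 and Cd177. Lcn2 (69 against 15), S100a8 (65 against 21) and Cd177 (44 against 18) reached the floor in wild type alone. Their direction was thus fixed by the floor, and they were at least 3.14-fold, 2.95-fold and 2-fold lower. Among T-cell genes, Cd3e and Cd3g read 22 or less on these 4 arrays, Cd3d read 18 to 25, Cd8a 30 to 35 and Cd4 39 to 44, none past the rule between genotypes. In the list of T and NK cell genes Thy1, which fibroblasts also express, was lower at both times. No gene of the B cell and dendritic cell lists passed the rule between genotypes. In the list of mast cells and their relatives, Hdc, histidine decarboxylase, was lower at both times (1059 against 385, and 484 against 80), and no other gene of that list reached the floor on these arrays.

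Markers of endothelium and stroma were below wild type together with the leukocyte markers at 8 h, and by their medians also at 24 h. Theca markers also lay below wild type at 8 h, some of them only slightly, and were mixed at 24 h. Of 16 endothelial genes above the floor, 14 were lower in the knockout at 8 h, with a median of -1.67. All 16 reached the floor in wild type and 12 in the knockout. Pecam1 (44 against 13), Tek (81 against 18), Tie1 (33 against 10) and Fli1 (69 against 15) missed it in the knockout. These were bound to lie below wild type. The summed intensity over 17 endothelial genes was 3174 in wild type against 1344 in the knockout. Of 15 stroma and smooth muscle genes 13 were lower, with a median of -2.16 and sums of 29582 and 6645. At 24 h, 3 of 15 endothelial genes were lower and 1 higher, with a median of -0.76 and 13 of the 15 below wild type. All 15 reached the floor in wild type and 13 in the knockout. Those under it in the knockout, Pecam1 (23 against 13) among them, were bound to lie below wild type. The endothelial sums were 1871 and 2136 with Ramp2, an adrenomedullin receptor subunit that read 288 and 1280, and 1583 and 856 without it. Of 15 stroma genes 3 were lower at 24 h, with a median of -0.44 and sums of 19628 and 13272. Of 7 theca genes 3 were lower at 8 h, namely Cyp17a1, Tcf21 and Fbln5. The median of the 7 was -0.99 and their sums were 15458 and 10611, of which Star alone gave 9231 and 7421. At 24 h 1 theca gene was lower and 1 higher, with a median of 0.11 and sums of 4997 and 10472. Granulosa markers gave sums of 35286 and 34620 at 8 h, and 47391 and 43508 at 24 h, and 0 of 9 passed the rule at either time. No gene of these lists was at 0, the lowest value on these 4 arrays being 4. The part of these cell types in the leukocyte marker differences was not tested.

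Different probe sets of a gene gave a technical spread, which holds no animal-to-animal variation. For the markers with several probe sets above the floor, their SD around the gene's mean log2 difference was 0.36 at 8 h (6 genes) and 0.27 at 24 h (7 genes), and over all genes it was 0.28 and 0.40. Of the genes past the rule between genotypes, Lcp1 and Coro1a alone had a second probe set above the floor, and in both it went the same way and missed the rule.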

How the data were processed

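RNA of 5 samples was measured on mouse Affymetrix arrays of 45101 probe sets, 1 array per group. The authors' deposited values are linear intensities in whole numbers. Per the submitters' processing notes, affy and RMA were used (versions not stated). A genome build, and whether the 4 h array was normalized with the others, are not given in the sources used here. Rounding makes differences coarse at low intensity.

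Gene names came from GEO's annotation of the platform, updated by Entrez identifier from the RefSeq gene table (GRCm38.p6). Of the probe sets, 34958 had 1 symbol, 932 several and 9211 none, and 34754 identifiers matched. Only those with 1 symbol were used. Log2 was taken of the intensities, and a gene was its probe set of highest mean log2 over the 5 arrays. Python 3.11.15 with pandas 2.3.3 and numpy 2.4.6 was used, and the size rule was tested on simulated data. Precision is limited by the number of arrays.

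The 32 genes and all other lists were chosen with earlier results of these data known, so no list is independent evidence of its direction. The rule for named genes was every marker, and of each other list up to 4 genes past the size rule per comparison by size, plus ligands and subunits that pair with a marker. Genes named outside that rule were chosen after their values were seen. Examples are Ciita, S100a9, Ramp2, Inha, Star, Pecam1, Tie1 and the T-cell genes Cd3e, Cd3g, Cd3d, Cd8a and Cd4. Alternatives were 2 scalings, the mean of all probe sets, probe sets without the less specific types, other floors and other fold thresholds.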

Additional observations from a re-analysis of the deposited data

Results flagged for a closer look

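The genotype difference of Cd52 had opposite signs at the times compared, 1.48 at 8 h and -0.42 at 24 h on the log2 scale, of which the first passed the size rule. The same 4 values give its change with time, 1.24 in wild type and -0.65 in the knockout. C1qc changed with time by -0.50 in wild type and by 1.13 in the knockout, of which the second passed the rule. With 1 array per group none of these contrasts was tested.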

How the results depend on the processing

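The counts of markers past the rule moved by over 1.5 times under these settings. At 1.5-fold, 11 markers lay past it below wild type at 8 h (8.39% of all genes) and 11 at 24 h (10.3%), 14 rose with time in wild type (13.7%), and 12 rose (16.6%) and 1 fell (11.4%) in the knockout. At 3-fold, 1 was lower (1.6%) and 0 higher (0.48%) at 8 h, 1 was lower at 24 h (1.41%), 1 rose in wild type (1.89%) and 0 in the knockout (1.92%). When a gene's probe sets were averaged, 2 were lower at 24 h (3.39%) and 3 rose in wild type (4.68%). Averaging also took H2-Ab1 past the rule at 24 h, and at 8 h C1qb passed while Lcp1 did not. The other probe sets of Ptprc, Cd53, Ms4a6d and Cybb, which lost their calls, lay under the floor. Mrc1, Ms4a6d and Cybb missed the rule when values under the floor were raised to it, and Mrc1 missed it at 8 h after median centring. From 4 h to 8 h in the knockout, 4 fell (11.9% of all genes) and 5 rose (18%) after quantile normalization, and 4 fell (11.9%) and 4 rose (18.9%) after centring, and the median turned to 0.02912 after centring. C1qb reversed there, to 0.35, with the probe set of highest mean over 4 arrays, an alternative chosen after seeing the data. Beyond the scale and the choice of probe set, the cause was not tested. Medians in the 4 comparisons of 8 h and 24 h arrays kept their sign under the settings run. No paired analysis was possible because each group has 1 array.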
